A study of Triticum aestivum with 6 samples.

Results

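The first 20 Mb of chromosome 5D of bread wheat (Triticum aestivum) were followed gene by gene in white and purple grain. The interval was defined as the rows of the deposited gene table on 5D with a start under 20 Mb, without the genes placed in the KEGG pathway of benzoxazinoid biosynthesis. This gave 231 of 107891 genes. The interval had been picked out because genes raised in purple grain were seen there in the same libraries. Levels and calls of its genes are therefore a description, given with their standard errors and no p-value, while values of the copies on chromosomes 5A and 5B are given with their tests.

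White grain and purple grain were each represented by 3 RNA sequencing libraries, collected 30 days after flowering from plants grown in pots in a climate chamber. The labels name no cultivar, allele or cross, so grain colour coincides with every other genetic difference between the wheats, and the origin of a difference cannot be told apart from colour. Whether each library had its own plant is not stated either, so the p-values rest on a spread between samples that could be technical. The tissue label reads grain, whereas the extraction protocol speaks of stems and buds.

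Library totals ran from 78660932 to 102868886 counts. Endosperm storage genes (gliadins, glutenins and avenins, 110 of 115 with counts) held 8.58% to 22.7% of summed FPKM, the authors' length- and depth-scaled level. Green-tissue genes (chlorophyll-binding and Rubisco small subunit genes, 74 of 81 with counts) held 0.00405% to 0.0411%. A library of each grain type was less like its group than the other two were like each other. Log-CPM correlations of purple replicate 3 with purple replicates 1 and 2 were 0.849 and 0.868, against 0.922 between those. White replicate 1 had 0.867 and 0.844 with white replicates 2 and 3, against 0.931 between those.

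Bread wheat carries A, B and D subgenomes, so most genes of 5D have counterparts on 5A and 5B. The tip of the short arm of 5D is known for the hardness locus Ha, which holds grain softness protein 1 and the puroindolines. The puroindolines, small lipid-binding proteins of the endosperm, set the texture of the kernel, and in bread wheat their genes remain on the D subgenome only. Genes of both kinds are called hardness genes below, after the locus. Coordinates are those of the deposited table, whose genome build is not given in the sources used here.

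Of the 231 genes, 77 reached a mean of 0.5 FPKM and were tested, 154 did not, and 75 of the latter had 0 counts in every library. The tested share was 33.3%, against 44.9% of the whole table. Calls came from edgeR's quasi-likelihood fit of the whole table and needed both an adjusted p (Benjamini-Hochberg) below 0.05 and a change of at least 1 on the log2 scale. Of the 77, 10 were called raised in purple grain and 3 lowered, and 64 were not called. Over all 48492 tested genes 2.87% were called raised and 2.32% lowered. With scaling by total counts, 6 were raised and 4 lowered, so that the raised share of calls was 60% instead of 76.9%, beside 2.50% raised and 2.83% lowered of all genes. That scaling shifted the median log2 difference of all genes by -0.13. DESeq2 called 16 genes of the interval raised and 5 lowered, with 9.41% and 6.20% of all genes, and limma on log2(FPKM + 1) called 5 raised and 4 lowered, with 3.17% and 3.47%. The median log2 difference of the 77 was 0.28, beside 0.02 for all tested genes, and 45 of 77 were above 0, as were 51.0% of all tested genes. Purple libraries all lay above white in 17 of the 77 genes and all below in 12, where 13.3% and 19.9% of all tested genes did so.

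Of the 10 raised genes, 9 lay at the tip of the chromosome. Of 51 genes starting in the first 4 Mb, 23 were tested, 9 were raised and 2 lowered, with a median log2 difference of 1.09. From 4 to 20 Mb, 54 of 180 genes were tested, 1 was raised and 1 lowered, and the median was 0.03. The 3 benzoxazinoid genes left out of the interval also start in this stretch, and the 2 of them tested were called raised. With them, 12 of 79 tested genes of the first 20 Mb were raised. By bins of 1 Mb, the numbers raised in the first 4 bins were 2, 3, 3 and 1, of 5, 3, 5 and 10 tested. The border at 4 Mb was set with these values known. On the rest of 5D, 62 of 2548 tested genes (2.43%) were raised and 20 lowered.

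**Figure D1:**
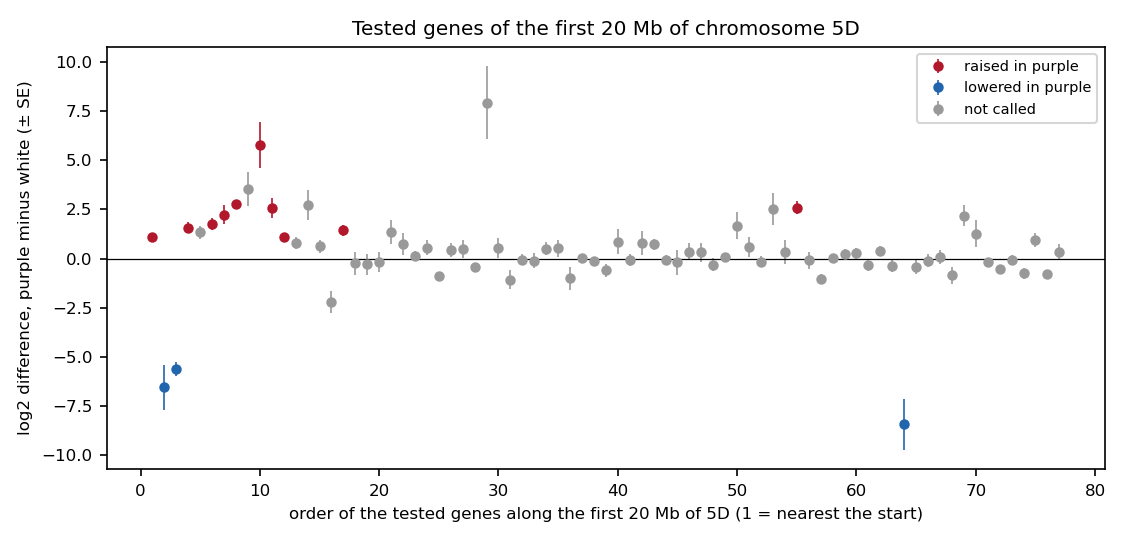
Log2 difference, purple minus white, of each of the 77 tested genes in their order along the first 20 Mb of 5D, coloured by call. Points are genes, and bars are standard errors derived from the edgeR test statistic. The genes nearest the start hold 9 of the 10 raised and 2 of the 3 lowered genes. The rightmost lowered gene had 0 counts in purple, so its plotted size depends on the fit's prior count.

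Many of these calls were lost when a library was left out, which also leaves fewer libraries in its group. Leaving out white replicates 1, 2 or 3 in turn left 3, 1 and 3 raised genes, leaving out purple replicates 1 or 2 left 2 and 1, and leaving out purple replicate 3 left 11. The lowered count without the same libraries, in that order, was 2, 1, 1, 2, 1 and 3. Calls over all genes moved too, in that order to 3.40%, 0.817%, 0.862%, 1.49%, 0.474% and 5.22% raised and to 2.26%, 0.800%, 0.829%, 1.22%, 0.735% and 5.02% lowered. Only 2 of the 13 calls, the raised TraesCS5D02G001500 and the lowered PRP4-like kinase gene, were kept whichever library was left out. In 10 of the 10 raised genes every purple library lay above every white library. Their calls came from the same libraries, so this separation adds no support. In 8 of the 10, purple replicate 3 was the lowest purple library. Levels below are FPKM in the order of replicates 1, 2 and 3.

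Near the very start of the chromosome, neighbouring genes were almost silent in purple grain. PRP4-like kinase, TraesCS5D02G000600 (5D:563974-569774), is described as a serine/threonine kinase of the PRP4 type, a family that acts on the pre-mRNA splicing machinery. It stood at 6.95, 6.13 and 6.50 FPKM in white and at 0.177, 0.0791 and 0.113 in purple. The groups lay far apart, with a log2 difference of -5.62 ± 0.37 (SE). Next to it, F775_28518 (TraesCS5D02G000500, 5D:554527-558722), a protein of undescribed function, had 5.35, 10.1 and 4.27 FPKM in white. Purple replicate 1 had 0 counts of it, and purple replicates 2 and 3 had 0.117 and 0.0663 FPKM. Its log2 difference was -6.55 ± 1.15 (SE), a call lost without white replicate 2 or 3 or purple replicate 2.

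The 5A and 5B copies of both genes had counts in every purple library. PRP4-like kinase copies were matched by hand after values were seen. The 5A copy (5A:10126-18461) had 3.70, 3.46 and 3.24 FPKM in white and 2.72, 2.89 and 2.80 in purple, a log2 difference of -0.21 with an edgeR adjusted p of 0.503. The 5B copy (5B:1741674-1747002) had a log2 difference of -0.60, adjusted p 0.164 in edgeR. The 5D gene made up 39.97%, 40.9% and 41.4% of the FPKM summed over the 3 copies in white libraries and 2.78%, 1.08% and 1.78% in purple. That sum was 16.0 ± 1.24 in white and 6.66 ± 0.55 in purple (SD, n = 3). For F775_28518, the 5D share went from 44.9%, 38.3% and 30.8% in white to 0%, 1.40% and 0.449% in purple. Its 5A and 5B copies had log2 differences of 0.58 and -0.13, with edgeR adjusted p of 0.231 and 0.859. Reads of near-identical copies may have been divided among them by the authors' counting, so the level of any single copy is uncertain. Differences between copies were not tested. A 5D share contains the 5D level that was called, so a shifted share adds no support to the call.

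**Figure D2:**
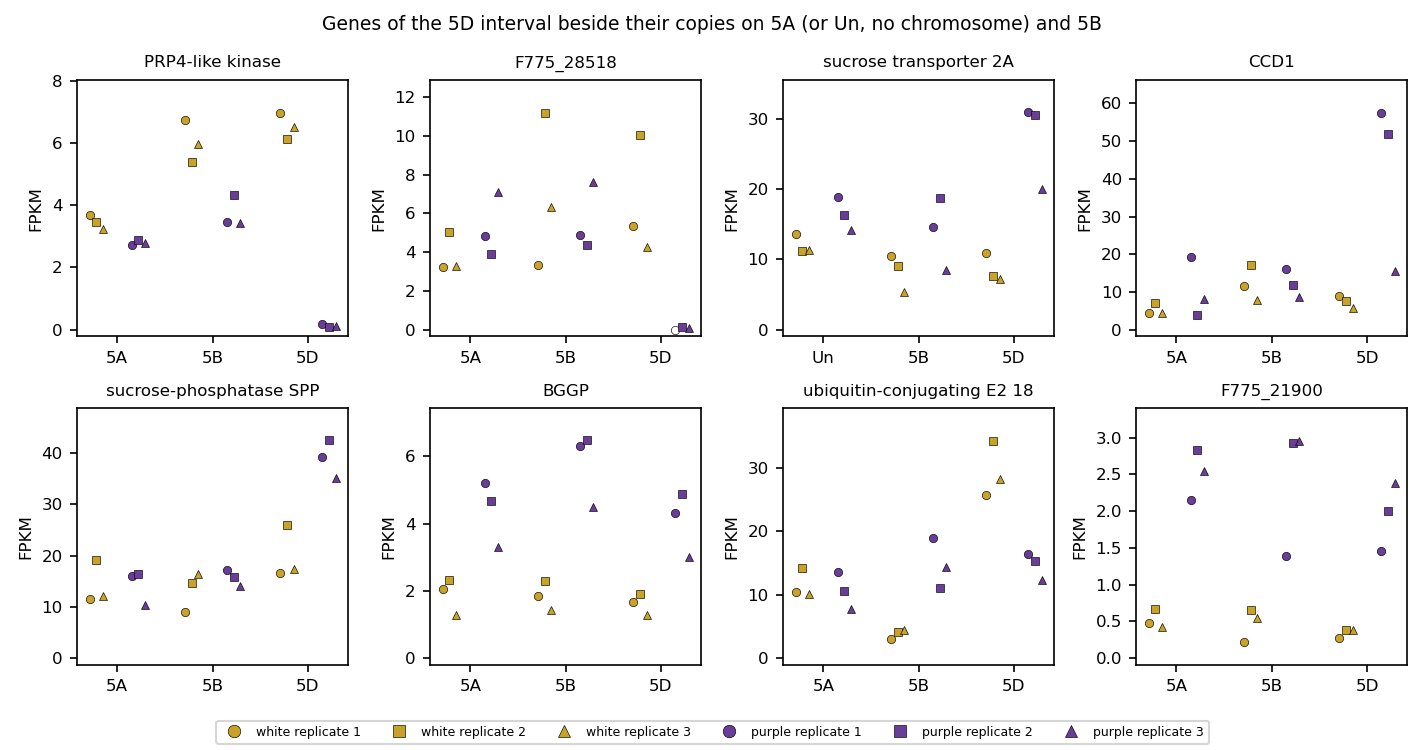
FPKM of 8 genes of the 5D interval beside their 5A (or unplaced, Un) and 5B copies, 1 point per library, white left and purple right within each copy, open points at 0. Purple points of the 5D copy drop to near 0 for the PRP4-like kinase and F775_28518, exceed the other copies within each library for sucrose transporter 2A, CCD1 and SPP, and lie above white in all 3 copies for BGGP and F775_21900.

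Genes of sucrose handling were among those called raised. Sucrose transporter 2A (TraesCS5D02G001200, 5D:1609486-1614664), of the family that moves sucrose across membranes, had 10.9, 7.64 and 7.25 FPKM in white and 31.0, 30.6 and 20.0 in purple. The groups did not overlap, and the log2 difference was 1.74 ± 0.31 (SE). Fits without white replicate 2 or 3, or without purple replicate 1 or 2, did not call it. Sucrose-phosphatase SPP2 (TraesCS5D02G002500, 5D:2660134-2666343), which removes the phosphate in the final step of sucrose synthesis, had 16.6, 26.1 and 17.4 FPKM in white and 39.2, 42.6 and 35.2 in purple. Its log2 difference of 1.09 ± 0.21 (SE) lay close to the limit for a call, which was kept only in the fit without purple replicate 3.

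Copies of the sucrose genes elsewhere were not called. For sucrose transporter 2A, the 5B copy had a log2 difference of 0.85 (edgeR adjusted p 0.210) and a copy on no chromosome 0.54 (adjusted p 0.178). The 5D share of the transporter's summed level was 31.2%, 27.5% and 30.3% in white and 48.1%, 46.7% and 46.8% in purple. For the phosphatase, the 5A and 5B copies, described as SPP1 and SPP3, had log2 differences of 0.13 and 0.35, with edgeR adjusted p of 0.773 and 0.392. The 5D share of the phosphatase level was 44.8%, 43.5% and 37.7% in white and 54.1%, 57.0% and 58.9% in purple. In both genes the purple shares lay above all white shares, in purple replicate 3 as in the others. The shares contain the 5D levels on which these genes were called, so this separation adds no support. The 5B transporter gene was matched by its description. The other copies were matched by hand after values were seen, although the transporter copy on no chromosome also shares the description.

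The largest called rise lay among a run of neighbouring genes. F775_27446 (TraesCS5D02G001800, 5D:2121540-2122331), of undescribed function, had 3.85, 7.12 and 0.539 FPKM in white and 250.5, 276 and 41.9 in purple. The log2 difference was 5.78 ± 1.15 (SE). Its neighbour CCD-D1 (TraesCS5D02G001900, 5D:2135699-2142446), of the carotenoid cleavage dioxygenases that cut carotenoids into smaller products, had 8.86, 7.70 and 5.79 FPKM in white and 57.5, 51.9 and 15.7 in purple, a log2 difference of 2.57 ± 0.52 (SE). Purple replicate 3 was well below the other purple libraries in both genes. Both calls were kept only in the fit without that replicate. F775_27445 (TraesCS5D02G001700), the gene before them, chosen after its values were seen, was not called, with 0.773, 0.555 and 0.376 FPKM in white and 9.19, 8.94 and 1.11 in purple.

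Embryo and aleurone genes (oleosins, late embryogenesis abundant proteins and dehydrins) had the same order of libraries as F775_27446. With 51 of 55 genes counted and 4 at 0 everywhere, they held 0.207%, 0.218% and 0.118% of summed FPKM in white and 1.24%, 1.32% and 0.365% in purple. Their part in the levels of F775_27446 and CCD-D1 was not tested. In bulk grain, fewer cells of a type and less RNA per cell cannot be told apart.

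The copies of these genes were matched by hand, by place or description, after values were seen. The 5A copy of F775_27446 had 3.75, 6.49 and 0.389 FPKM in white and 48.9, 56.3 and 5.68 in purple, a log2 difference of 3.54 ± 1.14 (SE) with an edgeR adjusted p of 0.115. The 5B copy stood at 1.54, 2.79 and 0.568 FPKM in white and 16.4, 27.1 and 4.26 in purple, and its log2 difference was 3.43, edgeR adjusted p 0.0625. Neither copy passed the threshold, and on 5A the groups overlapped. The 5D share of F775_27446 was 42.2%, 43.4% and 36.0% in white and 79.3%, 76.8% and 80.8% in purple, with purple replicate 3 as high as the rest. CCD-A1 and CCD-B1 had log2 differences of 1.09 and 0.13, with edgeR adjusted p of 0.249 and 0.815. CCD-D1 made up 35.8%, 24.2% and 32.0% of its set in white and 61.8%, 76.9% and 48.3% in purple. F775_27446 and CCD-D1 were called on their 5D levels, which enter these shares, so the higher shares add no support.

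The most even of the raised genes was TraesCS5D02G001500 (5D:1863397-1865475), described only as a predicted protein, with a GO term for the nucleus. It had 9.59, 11.6 and 10.6 FPKM in white and 71.5, 70.7 and 57.1 in purple. The log2 difference was 2.76 ± 0.19 (SE). The other raised genes with that description were TraesCS5D02G000100, with 6.59 FPKM on average in white and 12.9 in purple, and TraesCS5D02G000800, with 0.645 and 1.80. Those calls were kept only without purple replicate 3. These 3 genes, having no informative description, were named after their values were seen.

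A receptor kinase of the G-type lectin class, TraesCS5D02G001400 (5D:1799796-1802729), named after its values were seen, had 0.241, 0.260 and 0.140 FPKM in white and 1.19, 1.13 and 0.49997 in purple. The log2 difference was 2.23 ± 0.48 (SE), and the call was kept only without purple replicate 3. It fell under the tested level without purple replicate 1 or 2. Casein kinase I-2-like, TraesCS5D02G000900, chosen after its values were seen, was not called, at 2.84, 3.26 and 5.22 FPKM in white and 7.75, 7.54 and 11.3 in purple. Its 5D share of the copies was 23.5%, 22.3% and 33.6% in white and 40.6%, 39.4% and 44.5% in purple. That share contains the 5D level for which the gene was chosen, so it adds no support.

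**Figure D3:**
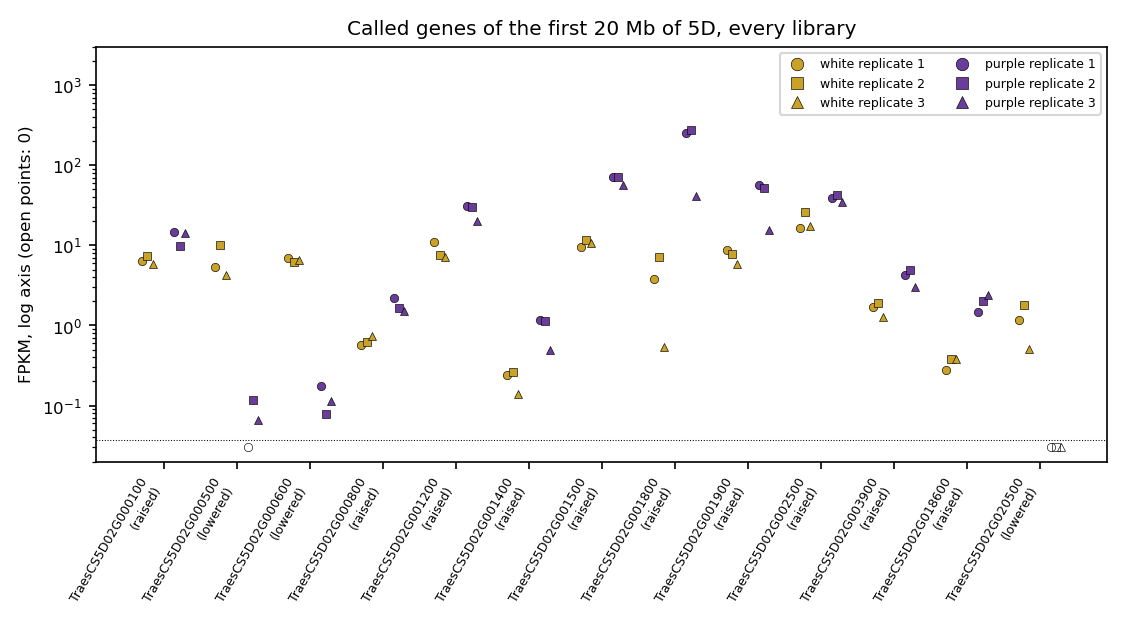
FPKM on a log axis of the 13 called genes in every library, in chromosome order, with white and purple libraries side by side and open points under the dotted line for 0. White and purple points do not overlap in any of them, which adds no support because the genes were called on these libraries. Purple replicate 3 (triangle) is the lowest purple point in 8 of the 10 raised genes.

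At the Ha locus, the gene before the hardness genes was called raised and the hardness genes were not called. BGGP (TraesCS5D02G003900, 5D:3566155-3569172), described as a galactosyl-O-glycosyl-glycoprotein enzyme, had 1.68, 1.91 and 1.28 FPKM in white and 4.33, 4.87 and 3.00 in purple, a log2 difference of 1.44 ± 0.28 (SE). That call was kept only without purple replicate 3. The 5B copy of BGGP (5B02G003400) was called too, with 1.84, 2.28 and 1.43 FPKM in white and 6.30, 6.49 and 4.50 in purple, a log2 difference of 1.75 ± 0.25 and an edgeR adjusted p of 0.0171. It was lost without white replicate 2 or 3 or purple replicate 1 or 2. The 5A copy of BGGP had 1.33 ± 0.30 and an edgeR adjusted p of 0.0559. The 5D share was 30.1%, 29.3% and 31.9% in white and 27.3%, 30.4% and 27.8% in purple, and these ranges overlapped. The 5A copy of BGGP was matched by hand after values were seen, while the 5B copy shares its description.

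Grain softness protein 1 (TraesCS5D02G004000, 5D:3571184-3571678) had 13122, 10763 and 11028 FPKM in white and 6505, 6082 and 15174 in purple. It ranked first among all genes of the table in each white library and in purple replicate 3, and 2nd in the other purple libraries. Puroindoline-A (TraesCS5D02G004100, 5D:3591526-3591972) had 12681, 10004 and 7191 FPKM in white and 6066, 5630 and 11277 in purple. Puroindoline-B (TraesCS5D02G004300, 5D:3609672-3610121) had 10241, 8501 and 5886 FPKM in white and 6063, 4462 and 9852 in purple. Purple replicates 1 and 2 lay below every white library in the first of these 3 genes and in Puroindoline-A, but not in Puroindoline-B, where purple replicate 1 lay above white replicate 3. Purple replicate 3 lay within or above the white range in each, so the groups overlapped. The log2 differences were -0.23 ± 0.58, -0.28 ± 0.54 and -0.18 ± 0.52 (SE).

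Together the hardness genes held 4.43%, 3.98% and 3.01% of summed FPKM in white and 2.41%, 2.11% and 4.35% in purple. Endosperm storage genes were also lower in purple replicates 1 and 2, with 18.3%, 10.9% and 21.9% in white against 8.58%, 9.39% and 22.7% in purple, and their part in these levels was not tested. The softness genes of 5A and 5B, copies matched by hand, had log2 differences of -0.81 and -0.54, with edgeR adjusted p of 0.583 and 0.702. Their purple libraries followed the same order, with 918, 867 and 4806 FPKM on 5A and 1121, 1026 and 5793 on 5B.

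**Figure D4:**
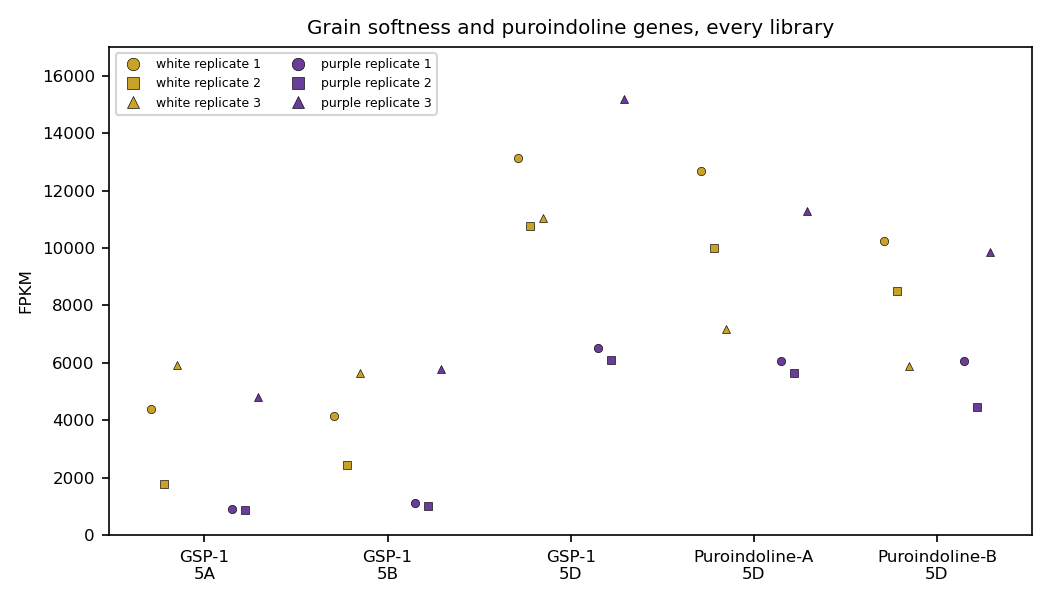
FPKM in every library of the grain softness protein 1 genes of 5A, 5B and 5D and of the puroindoline genes of 5D, with white libraries left and purple right. Purple replicates 1 and 2 lie low and purple replicate 3 (triangle) high in all 5 genes, within or above the white range.

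Past 4 Mb, a gene of 5D was raised together with its copies. F775_21900 (TraesCS5D02G018600, 5D:10897105-10900888), of undescribed function, had 0.279, 0.379 and 0.381 FPKM in white and 1.46, 2.004 and 2.38 in purple. The log2 difference was 2.60 ± 0.34 (SE), a call lost without white replicate 2 or purple replicate 2. The 5A copy had 0.476, 0.666 and 0.424 FPKM in white and 2.16, 2.83 and 2.54 in purple, with a log2 difference of 2.39 ± 0.29 and an edgeR adjusted p of 0.0104, lost without purple replicate 2. The 5B copy had 0.224, 0.649 and 0.546 FPKM in white and 1.40, 2.92 and 2.95 in purple, with 2.50 ± 0.49 and an edgeR adjusted p of 0.0396. That call was kept only without purple replicate 1. The 5D share lay between 22.4% and 30.3% in all 6 libraries.

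For the ubiquitin-conjugating enzyme E2 18, purple levels lay below white on 5D and above white on 5B. E2 enzymes carry ubiquitin to the ligases that attach it to target proteins. The 5D gene (TraesCS5D02G006000, start 5170287) had 25.7, 34.2 and 28.2 FPKM in white and 16.4, 15.3 and 12.4 in purple. The groups did not overlap, but the log2 difference of -0.89 ± 0.17 (SE) missed the size needed for a call. The 5B copy (5B:6650056-6654556) had 2.99, 4.06 and 4.51 FPKM in white and 18.9, 11.0 and 14.4 in purple, a log2 difference of 2.04 ± 0.27 with an edgeR adjusted p of 0.0137, lost without white replicate 2. The 5A copy was at -0.00 with an adjusted p of 1 in edgeR. The sum of the 3 copies was 44.8 ± 6.90 in white and 40.1 ± 7.71 in purple (SD, n = 3), while the 5D share was 65.8%, 65.2% and 65.9% in white and 33.4%, 41.5% and 35.9% in purple.

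Over the whole interval, 41 tested genes had at least 1 copy by a shared description among 5A and 5B genes starting in the first 30 Mb. Of 65 copies, 50 were tested, and 5 were raised and 0 lowered in edgeR, beside 2.87% and 2.32% of all tested genes. With copies matched by KO number instead, 2 of 52 tested were raised. Scaling by total counts left 3 raised copies, beside 2.50% of all tested genes. The median log2 difference of the 50 tested copies by description was 0.19. At an unadjusted edgeR p under 0.05, 10 copies were higher and 6 lower, where 14.2% and 12.6% of all genes were. DESeq2 called 8 copies raised and 1 lowered, beside 9.41% and 6.20% of all tested genes. The fifth raised copy was HIPL1 of 5A (5A02G003800), at 0.793, 2.09 and 0.961 FPKM in white and 2.92, 3.89 and 3.94 in purple, a log2 difference of 1.65 ± 0.35 with an edgeR adjusted p of 0.0499. It was kept only without white replicate 2 and was named after its values were seen. The 5D HIPL1 gene had a log2 difference of 0.15 and was not called.

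In 16 sets with a single described copy on each chromosome and counts in every library, the 5D share was higher in all purple than in all white libraries in 3, lower in 5 and overlapping in 8. Sets of other chromosomes were not counted, so whether these numbers are particular to 5D is not known. Among the sets with a higher share was Mitochondrial GTPase 1, with 23.5%, 23.5% and 21.0% in white and 48.5%, 56.2% and 55.1% in purple. Its 5D gene (TraesCS5D02G021200) had 0.224, 0.636 and 0.462 FPKM in white and 1.04, 2.70 and 1.70 in purple and was not called. The receptor kinase gene described as LRR FEI 1-like (TraesCS5D02G007200) was nearly silent in white on each chromosome. On 5D it had 0, 0.0178 and 0 FPKM in white and 0.105, 0.626 and 4.01 in purple. The 5A copy, with 0 counts in white, reached 0.0734, 0.678 and 3.02 FPKM in purple, and the 5B copy had 0, 0.0777 and 0 in white and 0.0158, 1.52 and 2.93 in purple. None was called, with edgeR adjusted p of 0.0758 on 5A and 0.130 on 5B. These GTPase and FEI 1 sets were chosen after their values were seen.

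The first 20 Mb of 5A and 5B were first counted with their benzoxazinoid genes, unlike the 5D interval. Of 105 tested genes in the first 20 Mb of 5A, 4 were raised and 1 lowered, with a median log2 difference of 0.01, and of 85 on 5B, 4 were raised and 1 lowered, with 0.02. Nearer the tips the medians were higher, at 0.58 over the first 4 Mb of 5A, where 18 of 25 tested genes were above 0 and 1 was raised, and at 0.28 over the first 6 Mb of 5B, where 13 of 19 were above 0 and 1 was raised. These tip windows were set with values known. Without the benzoxazinoid genes, as on 5D, the raised counts over 20 Mb were 2 of 103 (1.94%) and 3 of 82 (3.66%), beside 2.87% of all tested genes. Summed levels on 5A were 5793 ± 1887 FPKM in white and 4017 ± 1779 in purple (SD, n = 3; two-sided exact permutation p = 0.3). On 5B they were 5626 ± 1556 and 4391 ± 2058 (SD, n = 3; exact permutation p = 0.5), and the smallest p this design allows is 0.1. The direction of both sums rested on the grain softness gene. Without it, 5A summed to 1756 ± 229 FPKM in white and 1820.1 ± 487 in purple (SD, n = 3; exact permutation p = 0.8), and 5B to 1539 ± 174 and 1744 ± 667 (SD, n = 3; exact permutation p = 0.6). The 5D genes summed to 31159 ± 5993 and 25270 ± 10697 FPKM (SD, n = 3), or 1353 ± 312 and 1566 ± 304 without the 3 hardness genes.

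By function, the lists defined by description held few members each. Of 12 kinase genes, 4 were tested, with the G-type lectin kinase raised and the PRP4-like kinase lowered. Of 4 transporters, 2 were tested and sucrose transporter 2A was raised. The only gene in the list of glycosyl and acyl transferases was BGGP. No list member was called among 3 tested transcription factors, 3 tested F-box and ubiquitin genes, 1 tested protease gene and 1 tested disease resistance gene of the NLR class. Of these 8 genes edgeR and DESeq2 each called 0, and at an unadjusted edgeR p under 0.05, 2 were higher and 2 lower. The ethylene response factor SM151-1 (TraesCS5D02G002600) had 2.38, 5.61 and 3.81 FPKM in white and 4.64, 6.36 and 7.22 in purple, with overlap. The resistance gene RGA2 (TraesCS5D02G005300) had 0.531 FPKM on average in white and 0.743 in purple. The Do-like serine protease gene (TraesCS5D02G013600) had 12.8 and 12.3.

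None of 9 cytochrome P450 genes, 5 ribosomal and translation genes, 2 wall hydrolase genes and 28 plastid or mitochondrial sequences reached the tested level. The plastid and mitochondrial list was added after the table was seen. The bin from 6 to 7 Mb held 56 genes, of which 4 were tested. No member fell in the lists of storage and inhibitor proteins, glutathione S-transferases and peroxidases, heat shock proteins or transposon-derived genes. The 155 genes in no list included 59 tested, 7 raised and 2 lowered.

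The other most abundant genes of the interval overlapped between grain types. The glycine-rich RNA-binding protein gene (TraesCS5D02G020900) had 623, 1031 and 604 FPKM in white and 774, 620.0 and 526 in purple, a log2 difference of -0.10 ± 0.33 (SE). Enolase, a glycolytic enzyme, had 122, 109 and 96.8 FPKM in white and 129, 138 and 103 in purple at TraesCS5D02G019800, a log2 difference of 0.28 ± 0.27 (SE). Neither was called.

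Lowered in purple past 4 Mb was an HVA22-like gene (TraesCS5D02G020500, 5D:13171604-13172703), of a family first known in barley as induced by abscisic acid. It had 1.16, 1.81 and 0.504 FPKM in white and 0 counts in every purple library. Against a floor of 3 counts per library it was at least 16.4-fold lower. Its call did not hold without white replicate 3 or purple replicate 1 or 2, and the gene fell under the tested level without white replicate 1 or 2.

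Some genes below the tested level had counts in all libraries of a single grain type. Across all genes listed, 1.44% of genes had 0 counts in white and counts in every purple library, and 0.749% the reverse. In the interval 4 of 231 genes were of the first kind and 3 of 231, with the HVA22-like gene, of the second. An excess over those shares was not tested. Cysteine-rich receptor-like kinase 41 (TraesCS5D02G017400) had 125, 113 and 76 counts in purple, at least 30.3-fold higher than in white at the floor of 3 counts per library. Pathogenesis-related protein 1 (TraesCS5D02G018700) had 104, 22 and 72 counts, at least 19.5-fold higher, and TRIUR3_10953 (TraesCS5D02G017600) had 37, 33 and 23, at least 8.98-fold higher. Lipoxygenase 2.1 (TraesCS5D02G013400) had 4, 8 and 10. In white, F775_00331 (TraesCS5D02G014000) had 7, 17 and 12 counts, at least 4.49-fold higher than the floor in purple, and a plastid Clp protease subunit gene had 1, 5 and 4. These genes were chosen after their values were seen.

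The 3 genes left out by the KEGG pathway are cytochrome P450 genes. TraesCS5D02G014100 had 0 counts in white and 52, 472 and 69 counts in purple. At the floor of 3 counts per library it was at least 56.5-fold higher in purple, but it fell below the tested level. White libraries had 0 counts of TraesCS5D02G014200 (start 8020016), which reached 6.09, 10.9 and 2.84 FPKM in purple, and TraesCS5D02G014300 had 0, 0.0891 and 0 FPKM in white and 1.79, 5.50 and 3.97 in purple. At the 20 Mb border, the last genes inside, TraesCS5D02G023800 (start 18998303) and TraesCS5D02G023900 (start 19746580), had 0 counts in every library. The first gene outside, TraesCS5D02G024000 (start 20210242), also had 0 counts, and the next, a methyl-CpG-binding domain 4 gene (TraesCS5D02G024100, start 20957963), had 0.652 ± 0.307 FPKM in white and 1.38 ± 0.369 in purple (SD, n = 3) and was not called.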

How the data were processed

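Grain RNA was sequenced in 3 libraries per grain type. Per the submitters' processing notes, cutadapt, HISAT2 and StringTie were used, while roles, versions, strand setting and genome build are not given in the sources used here. Raw counts per gene and the authors' FPKM make up the deposited table, per the file headers. In the FPKM columns, every count of 0 was written as 0.0001 and read here as 0. A further 12 measurement columns match no labelled sample and were not used. Of the table's gene IDs, 0 were found in the reference gene table.

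The 48492 genes averaging 0.5 FPKM or more were tested on counts with edgeR 4.0.16 in R 4.3.3 (TMM, trended dispersion, quasi-likelihood, no replicate block). The common biological coefficient of variation was 0.488. Standard errors of log2 differences were derived from the edgeR test, as the absolute difference over the square root of its F statistic. They restate that test and add no support to a call. DESeq2 1.42.0, limma 3.58.1 and other scalings, filters and left-out libraries were alternatives. The steps were tested on simulated counts with genes changed 2-, 4-, 8- and 16-fold. Of these, 2%, 32%, 76% and 92% were called, so a gene not called can still differ. Sums used exact permutation over libraries, and fold bounds a floor of 3 counts per library, which covers counting error only. Copies shared a description, and matching by hand after values were seen brought the tested copies from 50 to 62.

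Members and lists were chosen with earlier results of these data known. The rule for named genes took the Ha locus, the 10 raised and 6 lowered calls with the largest difference and an informative description, the leading gene of each list, the 5 highest genes, the border genes, and copies described once on each chromosome. Some of these are left out of the text.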

Additional observations from a re-analysis of the deposited data

How the results depend on the processing

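Of 1349 recomputed values of single genes, 1242 kept their direction and call, 21 gained a call and 86 lost it, and none reversed. Scaling by total counts gave 6 raised genes in the interval and 3 raised copies. DESeq2 called 16 raised and 5 lowered genes in the interval, 8 raised and 1 lowered copies, and 4561 and 3008 of all genes. With limma on log2(FPKM + 1) 5 genes of the interval were raised, and with log2(FPKM + 0.1) 2008 of all genes were lowered. Copies matched by KO number gave 2 raised of 52 tested, beside 2.87% of all tested genes. Leaving out single libraries gave 1 to 11 raised and 1 to 3 lowered genes in the interval, 1 to 4 raised copies, and 229 to 2515 raised and 355 to 2417 lowered of all genes, against 1391 and 1127 with every library. The fewest raised of all genes came without purple replicate 2 and the most without purple replicate 3. The cause of these differences was not tested.

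White and purple libraries of the same replicate number had correlated deviations of 0.120, 0.00036 and 0.228, and white replicate 2 correlated best with purple replicate 1, so the numbers were not read as pairing the samples. With a replicate block, 10 genes of the interval were raised and 2 lowered, 5 copies were raised and 0 lowered, and 1551 and 996 of all genes were called. At this depth 75 genes of the interval had no count in any library, and no difference was detectable there.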
